A study of Mus musculus with 20 samples.

Results

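The metal sensor Mtf1 and 9 zinc transporters (Slc30a1, Slc30a5, Slc30a7, Slc39a1, Slc39a3, Slc39a6, Slc39a7, Slc39a10 and Slc39a14) were followed in splenic natural killer (NK) cells. They were taken as every array probe carrying 1 of these 10 gene names, which gave 18 probes of the 41174 on the array and 10 of its 27827 gene names. NK cells, cytotoxic lymphocytes of innate immunity, came from 20 male C57BL/6 mice, and each mouse's RNA was hybridised to 1 single-colour array. For 14 days the mice were gavaged daily with ptaquiloside at 5.3 mg/kg (5 mice), with selenium at 1.3 mg/kg (5 mice), with both compounds at these doses (5 mice), or with water as the control (5 mice). All animals carried the same strain background with no genetic change in the labels, and all had the same gavage. Ptaquiloside is the main carcinogen of bracken fern. Selenium is a trace element that selenoproteins need. The cells were isolated untouched, by holding back other spleen cells on magnetic columns, so RNA of remaining other cells would be measured with that of the NK cells. In such bulk RNA, fewer cells of a type and less RNA per cell cannot be told apart.

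Zinc enters the cytosol through transporters of the Slc39 (ZIP) family and leaves it, to the outside or into organelles, through those of the Slc30 (ZnT) family. Mtf1 is the zinc-finger transcription factor that binds metal response elements when free zinc rises, and it drives the metallothioneins Mt1 and Mt2, small cysteine-rich proteins that bind zinc, and the exporter Slc30a1. In lymphocytes zinc serves as a cofactor of many enzymes and as a signal in activation.

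Probe sequences are shown for the genes whose probes are set against each other below, because each gene name stands for a short stretch of its transcript and not for the whole of it. Positions are those of the scanner files, on mm9, and no annotation of exons of that build was used. The first line is a whole probe of 60 bases, and of the others the first 30 bases are shown.
Mtf1 probe A_52_P236072, chr4:124482221-124482280, forward: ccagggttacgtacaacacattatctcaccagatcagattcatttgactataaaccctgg
Mtf1 probe A_52_P467266, chr4:124526365-124526424, forward: acaacggacttccactgagcgatatgaaaa
Slc30a1 probe A_51_P250378, chr1:193733593-193733652, forward: attaaaaacgtgccaaacaaacagcccgaa
Slc30a1 probe A_51_P300572, chr1:193736760-193736819, forward: aacatagaattgatatgtggttatataaaa
Slc39a3 probe A_51_P387248, chr10:80491584-80491643, reverse: acaccagaacaccacagcatcattagtgaa
Slc39a14 probe A_51_P324110, chr14:70706300-70706359, reverse: aaactggcacagacttgtctgcctgcattc
Slc39a14 probe A_51_P282983, chr14:70703405-70703464, reverse: gatacagataagctggatgattttttgcat
The pair of Mtf1 probes lie 44.1 kb apart on chromosome 4, and both are listed for the same Mtf1 transcript.

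Promoter windows, the 250 bases before the gene start in RefSeq sequences of build GRCm38.p6, were searched on both strands for the core of the metal response element, spelled TGCACNC or TGCGCNC. These 2 spellings cannot overlap at 1 position. Windows were found for 8 of the 10 genes, and those of 3 held a core: Slc30a1, Slc30a5 and Slc39a3, with 1 each. The windows of Mtf1, Slc30a7, Slc39a1, Slc39a7 and Slc39a10 held none of these letters. Slc39a6 and Slc39a14 had no entry. Of all 32851 windows of this length, 21.4% held at least 1 core, so a match is common. The windows of Slc30a1 and Slc39a3 and of the metallothioneins are shown, because these are the genes compared across mice below, with the cores in capitals.
Slc30a1 promoter window, chr1:191906531-191906780, + strand: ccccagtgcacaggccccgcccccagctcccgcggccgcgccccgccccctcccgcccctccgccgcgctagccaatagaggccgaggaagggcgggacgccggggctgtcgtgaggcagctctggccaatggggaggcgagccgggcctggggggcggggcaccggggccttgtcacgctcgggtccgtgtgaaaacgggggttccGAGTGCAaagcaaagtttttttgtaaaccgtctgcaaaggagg
Slc39a3 promoter window, chr10:81037316-81037565, - strand: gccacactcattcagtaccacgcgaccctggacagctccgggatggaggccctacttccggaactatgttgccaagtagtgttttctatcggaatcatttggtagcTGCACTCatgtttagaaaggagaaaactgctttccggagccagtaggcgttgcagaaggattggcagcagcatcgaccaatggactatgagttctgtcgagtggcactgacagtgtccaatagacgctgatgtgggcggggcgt
Mt1 promoter window, chr8:94178839-94179088, + strand: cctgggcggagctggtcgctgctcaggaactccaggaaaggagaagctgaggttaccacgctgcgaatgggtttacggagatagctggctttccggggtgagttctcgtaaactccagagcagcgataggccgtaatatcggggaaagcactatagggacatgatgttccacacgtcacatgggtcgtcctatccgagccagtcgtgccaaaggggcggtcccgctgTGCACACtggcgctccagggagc
Mt2 promoter window, chr8:94172368-94172617, + strand: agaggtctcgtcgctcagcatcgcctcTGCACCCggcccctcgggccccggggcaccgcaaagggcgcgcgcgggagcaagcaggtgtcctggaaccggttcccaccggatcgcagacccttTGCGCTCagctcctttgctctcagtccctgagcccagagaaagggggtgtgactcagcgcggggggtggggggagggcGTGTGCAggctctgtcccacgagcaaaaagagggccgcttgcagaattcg
The core of Slc30a1 lies on the strand opposite to the gene, 37 to 43 bases before the start. That of Slc39a3 lies 138 to 144 bases before it on the gene's own strand. Within these 250 bases Mt2 has 3 cores and Mt1 has 1, and sequence outside them was not searched. A match of letters is a description and not a site.

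Every value below is a level on the log2 scale, the log2 processed signal of a probe minus the 75th percentile of its array, so that 0 stands for the array's 75th percentile. Differences between groups are differences of such levels, where 1 is a factor of 2. The array of ptaquiloside mouse 4 was dim. Its 75th percentile was 10.5 scanner units and 36.3% of its spots passed background, whereas the remaining 19 arrays had 45.5 to 133 units and 51.7% to 60.8% of spots. Across probes it correlated with them at 0.625 to 0.755, and they with each other at 0.936 to 0.990. Results are therefore given with and without it. Each of the 5 slides carried the mice of 1 number, 1 of each group, and each group kept 1 position on all slides, so treatment and position cannot be told apart. The series describes 5 independent experiments, so the slide, the mouse number and the experiment cannot be told apart either. All 10 NK cell marker genes checked were well above background on all 20 arrays. Markers of other spleen cells were also measured: 5 of 5 B cell, 6 of 6 T cell, 6 of 6 macrophage and monocyte, and 5 of 5 neutrophil genes passed the filter described next. Precision is limited by the number of arrays.

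Of the 18 probes, 15 were well above background on at least 5 arrays and were tested, and each of the 10 genes had at least 1 tested probe. The other 3 were further probes of Mtf1, Slc30a7 and Slc39a1. The third Mtf1 probe and the second Slc30a7 probe were well above background on 0 arrays, and the second Slc39a1 probe on 3. That Slc39a1 probe is listed in the reverse direction and the tested one in the forward direction. On the array of ptaquiloside mouse 4, only 1 probe each of Slc39a1, Slc39a3, Slc39a7 and Slc39a14 was above background. Where a gene had several tested probes, the brightest stands for it and the others are given beside it. Levels are not compared between genes, since probes differ in brightness.

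None of the 10 genes passed the test in any comparison between groups. The limma test, fitted over 25028 probes with Benjamini-Hochberg adjustment at 0.05, called 0 of the 15 probes for ptaquiloside, for selenium or for both compounds against control. The share of all probes called was 0% in each of these comparisons, so the members do not stand apart in this. At an unadjusted p under 0.05 there were 0 of the 15 in each comparison, and over all probes 421 for ptaquiloside, 271 for selenium and 57 for both compounds. Both compounds against ptaquiloside, both against selenium, the interaction and the test among the 4 groups also called 0 probes, again a share of 0%, with 654, 158, 340 and 256 probes at an unadjusted p under 0.05. Without ptaquiloside mouse 4 the calls stayed at 0 in all 7, with 0 of the 15 at an unadjusted p under 0.05.

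The estimated differences were small beside their intervals, in fits without a term for the slide. Without ptaquiloside mouse 4, the brightest probes of the 10 genes differed from control by -0.34 to 0.20 with ptaquiloside, by -0.45 to 0.16 with selenium and by -0.21 to 0.17 with both compounds. Their 95% intervals reached from -1.15 to 0.66, from -1.04 to 0.66 and from -0.84 to 0.68 in these comparisons, with Slc39a10 at each lower end. The second Mtf1 probe had the widest intervals, for selenium from -1.27 to 2.43 about a difference of 0.58. Its control mean includes control mouse 2 at -6.28, below background. The medians went the other way, -1.25 in selenium mice and -0.70 in control mice. Selenium was higher on 2 of 5 slides, with differences within a slide between -0.73 and 3.94. The median absolute difference over the 15 probes was 0.070, 0.16 and 0.083 in these comparisons, and over all tested probes it was 0.15, 0.15 and 0.12.

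**Figure D1:**
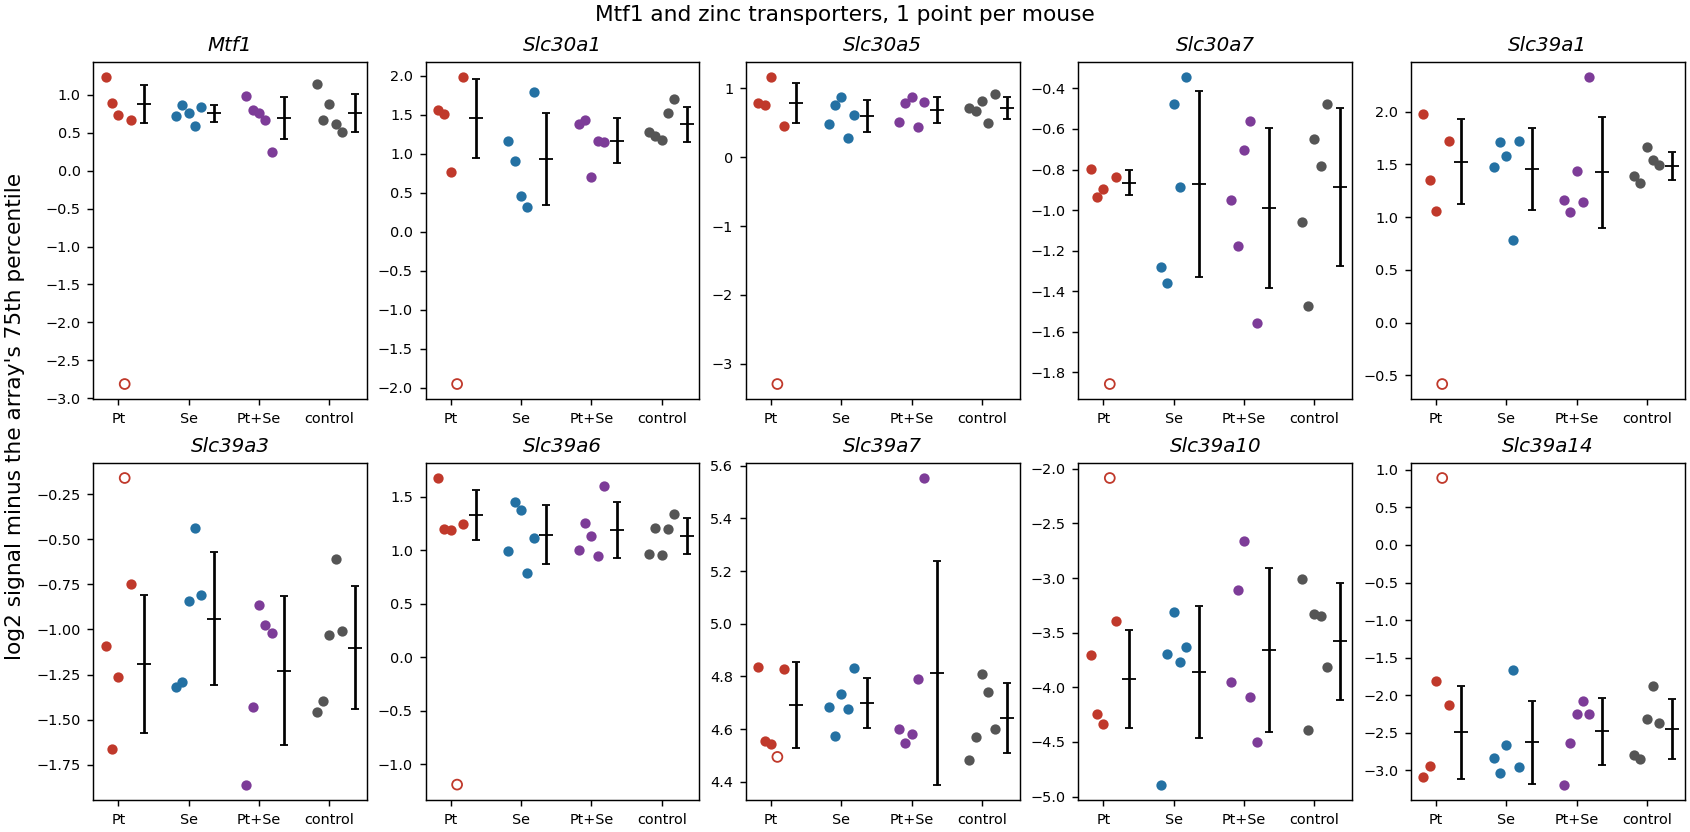
Levels of Mtf1 and the 9 zinc transporters (log2 signal minus the array's 75th percentile, brightest probe), 1 point per mouse in number order, for ptaquiloside (Pt), selenium (Se), both (Pt+Se) and control. The open circle is ptaquiloside mouse 4, and bars are the mean and SD without it. In all 10 panels the groups overlap.

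Mtf1 was read first with its brighter probe (A_52_P236072). It measured 1.23, 0.88, 0.73, -2.81 and 0.66 in ptaquiloside mice 1 to 5, and 0.72, 0.86, 0.75, 0.58 and 0.84 in selenium mice. In mice given both compounds it measured 0.98, 0.80, 0.76, 0.66 and 0.25, against 1.14, 0.66, 0.88, 0.61 and 0.51 in control mice. Apart from the dim array of ptaquiloside mouse 4 the groups overlap. That array sets the difference of ptaquiloside against control, -0.62 ± 0.51 (SE, n = 5 each) with it and 0.12 ± 0.17 without it (95% interval -0.24 to 0.47). The difference was -0.0076 for selenium and -0.068 for both compounds, each with an SE of 0.16 on the 19 arrays. The second probe (A_52_P467266) had a wide spread instead, with values down to -6.28, and is described with the mouse numbers below.

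The exporters came next. Slc30a1 moves zinc out across the plasma membrane, and its mean level on the 19 arrays was lowest after selenium. It measured 1.56, 1.51, 0.76, -1.95 and 1.98 in ptaquiloside mice 1 to 5, and 1.16, 0.91, 0.47, 0.32 and 1.79 in selenium mice. In mice given both compounds it measured 1.38, 1.43, 0.70, 1.16 and 1.15, against 1.28, 1.23, 1.17, 1.52 and 1.70 in control mice. Selenium mice 1 to 4 lay below every control mouse, and selenium mouse 5 lay above all of them, so the groups overlap. The difference of selenium against control was -0.45 ± 0.26 (SE, 19 arrays, 95% interval -1.0 to 0.096, adjusted p = 0.99976 by limma), and it was negative on 4 of 5 slides, between -1.20 and 0.090 within a slide. The second probe gave -0.44 ± 0.26 and was also lower on 4 of 5 slides. With the slide as a block and without ptaquiloside mouse 4, these were the 2 member probes at an unadjusted p under 0.05 (adjusted p = 0.894 and 0.895 by limma), when 1373 of all probes (5.49%) were. Of the macrophage and monocyte markers, 6 of 6 were lower in the selenium group than in controls. Their mean level over mice was 3.11 (2.62 to 3.86) in selenium mice and 3.79 (3.22 to 3.97) in control mice. It was 3.53 in ptaquiloside mice without mouse 4 and 3.48 in mice given both. Also lower in selenium mice were 5 of 5 B cell markers (mean -0.56, against 0.43 in control mice) and 6 of 6 T cell markers (-1.81 against -1.11). Higher were 10 of 10 NK cell, 5 of 5 neutrophil, 4 of 4 platelet and 4 of 5 erythroid markers, and 2 of 4 dendritic cell markers. The NK cell markers averaged 5.28 in selenium mice and 5.02 in control mice. The part of these cell types in the Slc30a1 difference was not tested. After both compounds the difference from control was -0.21 ± 0.26, and after ptaquiloside it was 0.074 ± 0.28 without mouse 4, against -0.61 with it.

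With their brightest probes, Slc30a5 and Slc30a7, which load zinc into the secretory pathway, differed from control by less than their spread. Slc30a5 averaged 0.79 ± 0.29 in ptaquiloside mice without mouse 4 (SD, n = 4), 0.60 ± 0.23 in selenium mice, 0.69 ± 0.20 in mice given both and 0.72 ± 0.16 in control mice (n = 5 each). With ptaquiloside mouse 4, at -3.29, the ptaquiloside difference was -0.75 ± 0.56, and without it 0.070 ± 0.16. The second Slc30a5 probe overlaps the first on the genome and gave differences of 0.11, -0.10 and -0.071 for ptaquiloside, selenium and both on the 19 arrays. The third Slc30a5 probe, listed for another transcript record, was dimmer and gave -0.070, -0.16 and -0.28. The last value was larger than the SDs of 0.24 in mice given both and 0.22 in control mice, and was not called. Slc30a7 averaged -0.87 ± 0.062 in ptaquiloside mice without mouse 4, -0.87 ± 0.46 in selenium mice, -0.99 ± 0.39 in mice given both and -0.89 ± 0.39 in control mice. Outside the gene names used here, 2 further probes listed under the clone names 4833428C12Rik and 2610034N15Rik match Slc30a7 in the reference table. On the 19 arrays the 4833428C12Rik probe differed from control by 0.032 with ptaquiloside, -0.11 with selenium and -0.22 with both, and the 2610034N15Rik probe by 0.092, -0.15 and 0.025, in each case by less than 1 SE. With selenium the 2610034N15Rik probe was below control on 5 of 5 slides, though on slide 5 only at -0.562 against -0.552. Such a case can arise by chance, and its share over all probes was not counted.

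Importers of the plasma membrane gave no call either. Slc39a1 averaged 1.53 ± 0.40 in ptaquiloside mice without mouse 4, 1.45 ± 0.39 in selenium mice, 1.42 ± 0.52 in mice given both and 1.48 ± 0.13 in control mice. Slc39a3 measured -1.09, -1.66, -1.26, -0.16 and -0.75 in ptaquiloside mice 1 to 5, and -1.32, -1.29, -0.84, -0.44 and -0.81 in selenium mice. In mice given both compounds it measured -1.86, -1.43, -0.86, -0.97 and -1.02, against -1.46, -1.40, -1.03, -0.61 and -1.01 in control mice. On each of the 5 slides the selenium mouse was higher than the control mouse for Slc39a3, by 0.11 to 0.20. This difference of 0.16 had an SE of 0.24 on the 19 arrays and 0.15 with the slide as a block (adjusted p = 0.956 by limma). The brightest probes of the 10 genes gave 30 differences from control on 20 arrays, and this was the only 1 of 1 sign on all 5 slides. Among so many differences such a case can arise by chance, and its share over all probes was not counted.

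Slc39a6, an importer studied in T cell activation, averaged 1.33 ± 0.23 in ptaquiloside mice without mouse 4, 1.15 ± 0.27 in selenium mice, 1.19 ± 0.26 in mice given both and 1.13 ± 0.17 in control mice. Slc39a10, an importer needed by B cells in mice, was near the background, being above it in 2 of 5 ptaquiloside mice, 2 of 5 selenium mice, 3 of 5 given both and 4 of 5 control mice. Its means were -3.92 ± 0.45 (n = 4, without mouse 4), -3.86 ± 0.60, -3.66 ± 0.75 and -3.58 ± 0.54 in these groups, and values of mice below background have no reliable order. Slc39a14, an importer of zinc and non-transferrin iron that inflammation induces in liver, measured -3.09, -2.94, -1.81, 0.89 and -2.13 in ptaquiloside mice 1 to 5 with its brighter probe (A_51_P324110), and -2.83, -3.03, -2.66, -1.67 and -2.95 in selenium mice. In mice given both compounds it measured -3.19, -2.64, -2.25, -2.07 and -2.25, against -2.80, -2.85, -2.31, -1.87 and -2.37 in control mice. The dim array again sets the ptaquiloside difference, 0.63 ± 0.54 with it and -0.048 ± 0.32 without it. The second Slc39a14 probe, A_51_P282983, differed from control by 0.027 ± 0.30 with ptaquiloside, -0.32 ± 0.28 with selenium and -0.056 ± 0.28 with both on the 19 arrays.

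Slc39a7 releases zinc from the endoplasmic reticulum into the cytosol. It was above background in all 20 mice. It measured 4.83, 4.55, 4.54, 4.49 and 4.83 in ptaquiloside mice 1 to 5, and 4.68, 4.57, 4.73, 4.68 and 4.83 in selenium mice. In mice given both compounds it measured 4.60, 4.55, 4.58, 4.79 and 5.55, against 4.48, 4.57, 4.81, 4.74 and 4.60 in control mice. Ptaquiloside mouse 4 did not stand apart here, and 1 mouse, number 5 of those given both compounds, was high. The differences from control were 0.050 ± 0.18, 0.059 ± 0.17 and 0.17 ± 0.17 for ptaquiloside, selenium and both on the 19 arrays.

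**Figure D2:**
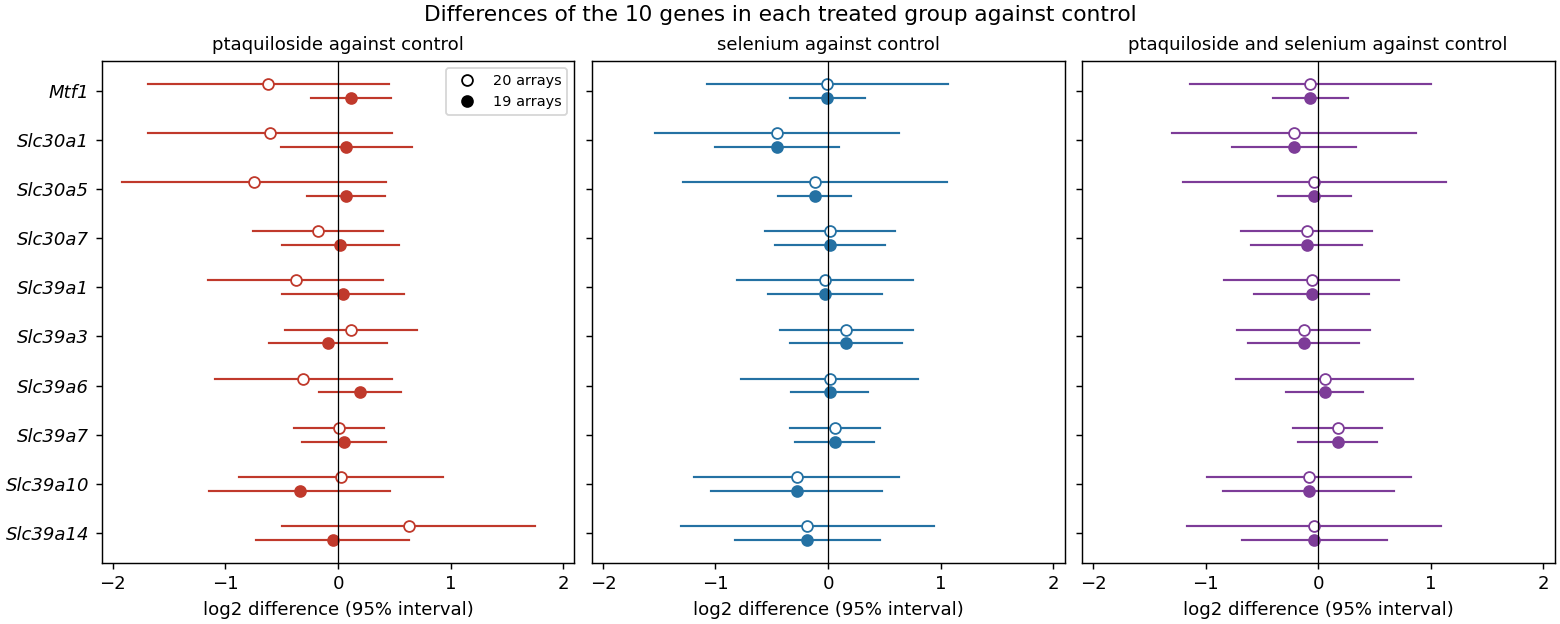
Differences from control of the 10 genes (log2 scale, brightest probe), 1 panel per treated group. Open circles are fits to 20 arrays and filled circles to the 19 without ptaquiloside mouse 4, with 95% intervals. These fits hold no term for the slide. Every interval shown holds 0, and in the ptaquiloside panel Mtf1, Slc30a1 and Slc30a5 lie at -0.62, -0.61 and -0.75 only with that mouse.

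On the array of ptaquiloside mouse 4, the brighter probes of Mtf1, Slc30a1, Slc30a5, Slc30a7, Slc39a6 and Slc39a10 were not well above background, so their values there have no reliable order. Of the 4 probes above background on it, Slc39a1 was lower than on the other 19 arrays, and Slc39a3 and the brighter Slc39a14 probe were higher. With this array, 4 of the 10 genes were higher in the ptaquiloside group than in the control group and 6 were lower, and without it 7 were higher and 3 lower.

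Among known targets of Mtf1, the metallothioneins were also not called between groups. Mt1 measured 5.35, 3.92, 5.12, 3.06 and 4.58 in ptaquiloside mice 1 to 5, and 5.60, 4.17, 2.99, 3.43 and 4.17 in selenium mice. In mice given both compounds it measured 6.13, 3.51, 3.03, 2.67 and 3.94, against 5.67, 3.98, 2.59, 2.64 and 3.69 in control mice. Its differences from control were 1.03 ± 0.70, 0.36 ± 0.66 and 0.14 ± 0.66 for ptaquiloside, selenium and both on the 19 arrays, and those of Mt2 were 1.13 ± 0.82, 0.59 ± 0.77 and 0.22 ± 0.77, with 0 called. Of 7 listed target genes, 7 were tested and 0 were called between groups. They were Mt1, Mt2, Gclc, Ndrg1, Csrp1 and the selenoprotein genes Selenoh and Selenow. With selenium, Selenoh differed from control by 0.25, Selenow by 0.23 and Gclc by -0.10. On 20 arrays 4 of them were higher and 3 lower with ptaquiloside, 6 higher and 1 lower with selenium, and 7 higher and 0 lower with both, with medians of 0.0055, 0.25 and 0.14. Over all probes the medians were -0.022, -0.0021 and 0.0085. Without ptaquiloside mouse 4, 6 were higher and 1 lower with ptaquiloside, with a median of 0.14, against -0.011 over all probes. The share of all probes that were higher was not counted. Some differences were close to none, such as 0.025 for Selenoh and 0.048 for Csrp1 with both compounds. A shift of the list as a whole was not tested. Of 16 other zinc transporter genes, 10 were tested and 0 called. With ptaquiloside 4 were higher and 6 lower on 20 arrays (3 and 7 without mouse 4), and 5 were higher and 5 lower both with selenium and with both compounds. Of the 6 not tested, Slc30a2 was above background on 1 array and Slc30a3, Slc30a8, Slc30a10, Slc39a5 and Slc39a12 on 0.

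Mouse number, unlike treatment, gave calls among these genes. The F test of mouse number, in a model with group, called 1099 of 24989 probes (4.4%) on 20 arrays and 4704 (18.8%) without ptaquiloside mouse 4. Of the 15 member probes it called 1 and 3 in these fits, shares close to those backgrounds.

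The second Mtf1 probe was the 1 called in both (adjusted p = 0.0409 and 0.0150, limma). It measured -3.22 in ptaquiloside mouse 2, -2.34 in selenium mouse 2 and -2.56 in mouse 2 given both compounds, against -6.28 in control mouse 2, which was below background. Among the other 15 mice without ptaquiloside mouse 4, which was at -2.53, its values ran from -1.43 to -0.38, so mouse 2 of every group lay below all of these. Means over groups for mouse numbers 1 to 5 were -1.09, -3.60, -0.76, -1.10 and -0.59 without that mouse. On 20 arrays, 1 array left out in turn, the probe was called in 5 of 20 fits (adjusted p 0.0150 to 0.0787). The brighter Mtf1 probe, 44.1 kb away, did not show the low mouse 2: its means by number were 1.02, 0.80, 0.78, 0.62 and 0.57 (adjusted p = 0.186).

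Slc39a3 and the brighter Slc39a14 probe were called without ptaquiloside mouse 4 (adjusted p = 0.0205 and 0.0113, limma) and not with it (0.0527 and 0.0689). Slc39a3 had means of -1.43, -1.44, -0.999, -0.67 and -0.89 for mouse numbers 1 to 5. Slc39a14 had means of -2.98, -2.86, -2.26, -1.87 and -2.42. Both were lowest in mice numbered 1 and 2 and highest in those numbered 4. Of the spread within groups, mouse number held 76.7% for Slc39a3 and 78.0% for the brighter Slc39a14 probe on the 19 arrays. The median over all tested probes was 44.9%. This share uses the same models as the test that called these probes, so it is not separate evidence. It was 62.9% and 64.2% for the Slc30a1 probes, which were not called, and 11.3% for Slc39a10. The second Slc39a14 probe did not repeat the order of the brighter one by mouse number, with means of -2.73, -2.51, -2.54, -3.23 and -2.87 (adjusted p = 0.342).

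Scaling mattered for these calls. On 20 arrays the call of the second Mtf1 probe was lost under all 3 other scalings, with adjusted p = 0.0504 for median centring, 0.160 for quantile normalization and 0.128 for normexp, which called 12.7%, 1.68% and 0.228% of all probes. Without ptaquiloside mouse 4, the second Mtf1 probe was called also with each array centred on its median (adjusted p = 0.0101), with quantile normalization (0.0226) and with normexp background correction (0.0209). Slc39a3 was called with quantile normalization (0.0427) but not with median centring (0.701) or normexp (0.497). Slc39a14 was called with quantile normalization (0.0257) but not with median centring (0.0727) or normexp (0.806). Median centring also called the brighter Mtf1 probe (0.0488), the second Slc30a1 probe (0.0441) and the second Slc39a14 probe (0.0481). Of all probes these fits called 32.6% with median centring, 17.4% with quantile normalization and 1.43% with normexp. These fits of changed scaling without that mouse were added after the data had been seen.

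Slc30a1 was not called by mouse number without ptaquiloside mouse 4 (adjusted p = 0.0601, and 0.0533 for its second probe), with means of 1.35, 1.27, 0.78, 1.00 and 1.66. When mouse 5 given both compounds was left out as well, both of its probes passed (0.0152 and 0.0359), and so did Slc30a7 (0.0400), in a fit added after the data had been seen that called 28.6% of all probes. With the 75th percentile scaling, the other 6 genes and the brighter Mtf1 probe were not called with 20 arrays or without ptaquiloside mouse 4.

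Mt1 and Mt2 followed the mouse number in another order. Mt1 had means of 5.69, 3.89, 3.43, 2.91 and 4.09 for numbers 1 to 5 on the 19 arrays, and Mt2 had 7.41, 5.66, 4.84, 4.01 and 4.96. Their adjusted p-values were 0.00473 and 0.00121 without ptaquiloside mouse 4, and both were called under each of the 3 other scalings too (0.0121 or less). Mice numbered 1 were highest and those numbered 4 lowest for both, whereas Slc39a3 and the brighter Slc39a14 probe were highest in number 4. The second Slc39a14 probe was lowest in number 4, at -3.23. The calls of Slc39a3 and the brighter Slc39a14 probe depended on the scaling, as given above. Of the other zinc transporters, 0 of 10 were called by mouse number on 20 arrays and 3 without ptaquiloside mouse 4: Slc39a2 (adjusted p = 0.0215), Slc39a8 (0.00915) and Slc39a13 (0.0401). Slc39a8 was above background on 6 arrays only. NK cell markers averaged 5.35, 5.43, 5.02, 5.07 and 4.79 over mouse numbers 1 to 5, and platelet markers 2.71, 2.76, 2.53, 2.02 and 2.33. Erythroid markers averaged -0.94, -1.03, -1.59, -1.28 and -1.95, and B cell markers 0.19, 0.00074, 0.42, -0.51 and -0.047. Dendritic cell markers averaged -0.87, -0.997, -0.87, -0.99 and -1.34. The means by number of the T cell, macrophage and monocyte, and neutrophil lists ran from -1.50 to -1.18, from 3.21 to 3.76 and from 3.66 to 4.00. The part of such cell make-up in the pattern was not tested.

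**Figure D3:**
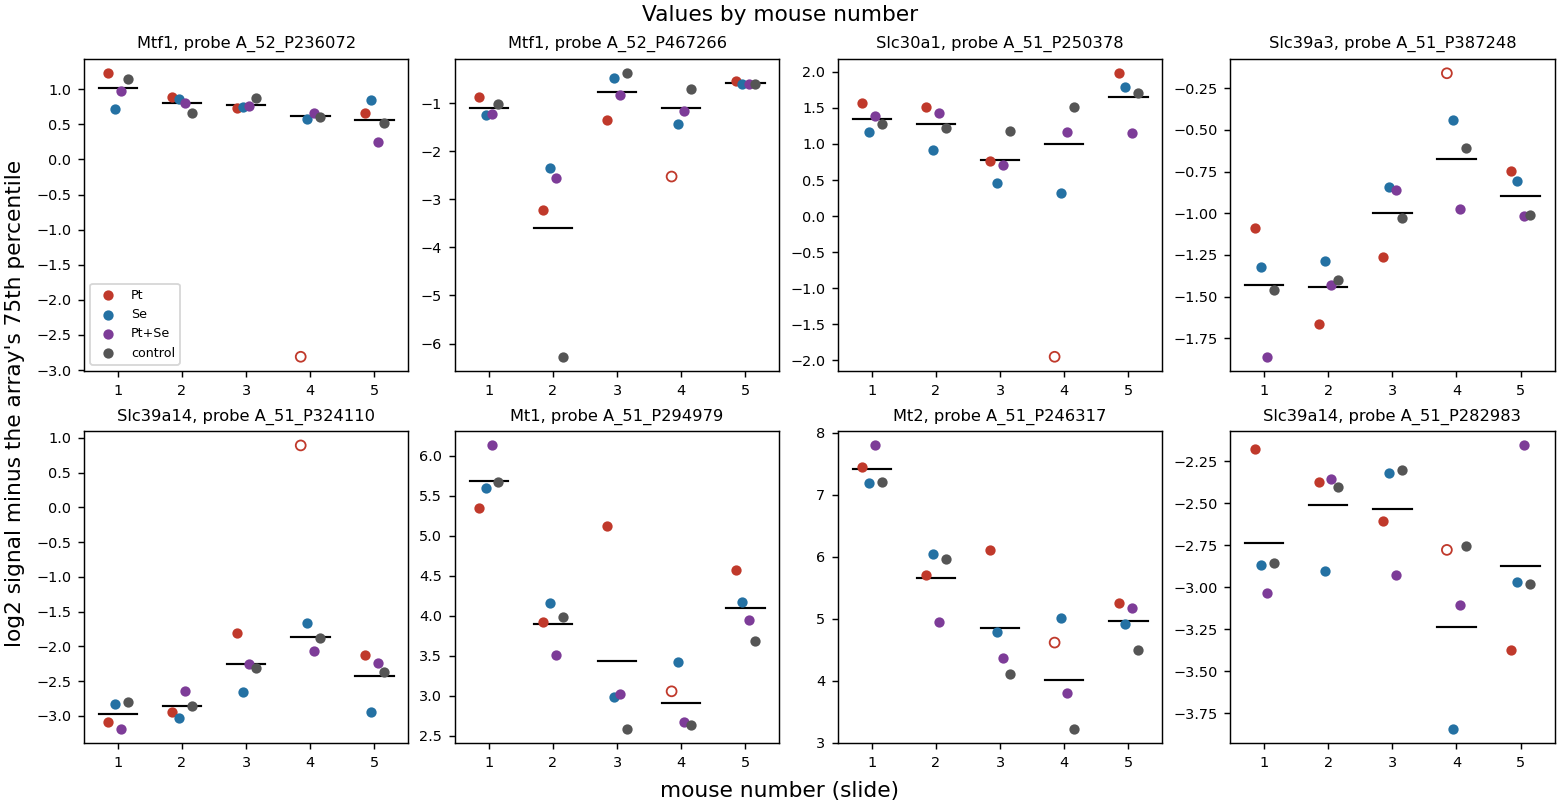
Levels by mouse number, which is also the slide (log2 signal minus the array's 75th percentile), for Mtf1 (both tested probes), Slc30a1, Slc39a3, Slc39a14 (both probes), Mt1 and Mt2. Colours are the groups ptaquiloside (Pt), selenium (Se), both (Pt+Se) and control, lines are means without ptaquiloside mouse 4 (open circle), and the low mice numbered 2 stand out for the second Mtf1 probe, at -2.34 to -6.28.

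The genes whose levels were most like those of the sensor and of its exporter target were taken as the 3 with the highest Pearson correlation over the 19 arrays, among 17042 genes. The highest of so many values are large by selection, the arrays share their slides, and the values describe these arrays only. For Mtf1 they were Rnaset2b (r = 0.891), Zbtb6 (0.883) and Rab6a (0.871). With ptaquiloside mouse 4 included these became 0.991, -0.639 and 0.326. For Slc30a1 they were Mmp8 (0.904), a collagenase of neutrophils, Hal (0.876), which breaks down histidine, and 2310022A10Rik (0.872), and with that mouse 0.438, 0.220 and 0.866. Neutrophil markers averaged 3.42 in ptaquiloside mice, 4.25 in selenium mice, 3.93 in mice given both and 3.83 in control mice on the 19 arrays. Their part in the likeness with Mmp8 was not tested.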

How the data were processed

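Each array's deposited scanner file, made with Agilent Feature Extraction 9.5.3.1 per the submitters' processing notes, holds spot intensity values, background-subtracted and not scaled between arrays per the file headers. Columns of unit other, per the file headers, hold probe names and the flags used to drop control and outlier spots and to tell which spots exceed background. The authors' processed values deposited for the whole series were not used here.

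From each log2 processed signal the 75th percentile of its array (control spots excluded) was subtracted, spots marked as outliers were dropped, and the spots of 1 probe were averaged. Probes that exceeded background on 5 or more arrays were tested with limma 3.58.1 (R 4.3.3, data.table in version 1.17.8). The model held 1 mean per group over all 20 arrays, and two-sided p-values were adjusted by Benjamini-Hochberg over all 25028 probes at 0.05. Mouse number was tested with an F test in a model with group, over 24989 probes. The scripts were tested on simulated data. Alternatives were median centring, quantile normalization, normexp (offset 50), filters, 1 probe per gene, the slide as a block, a t-test with a 2-fold limit on unscaled values, and each array left out. Of 41174 probes, 25097 were named through their accession and 16077 kept the file's name.

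The genes, the lists of other zinc transporters, Mtf1 targets and cell markers, and the tests were chosen with earlier results of these data known. Genes named are the 10 members with every probe and the listed Mtf1 targets. Also named are other zinc transporters past a threshold or not measured, and the 3 genes most like Mtf1 and Slc30a1. Marker means are averages of the log2 levels of a list's genes. Dixon's ratio for 5 values used a limit of 0.71.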

Additional observations from a re-analysis of the deposited data

Results flagged for a closer look

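Of 60 sets of 5 values (15 probes in 4 groups), 11 had a mouse whose gap to its nearest neighbour exceeded 0.71 of its group's range. This is the limit for 5 values, where chance gives about 1 in 20. The share over all tested probes was not counted, so the 11 are not shown to be particular to these genes. The array of ptaquiloside mouse 4 accounts for 6 of them, all low: Mtf1 (A_52_P236072) at -2.81, the second Slc30a1 probe at -2.98, Slc30a5 at -3.29 and, for its second probe, -2.79, Slc30a7 at -1.86, and Slc39a6 at -1.19. These 6 probes were not well above background on that array.

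The other 5 lie elsewhere. Control mouse 2 was low for the second Mtf1 probe at -6.28, on the slide where all 4 mice were low for it. Selenium mouse 4 was low for Slc39a1 at 0.787 and high for the brighter Slc39a14 probe at -1.67. Selenium mouse 1 was low for Slc39a10 at -4.89, near the background. Mouse 5 of those given both compounds was high for Slc39a7 at 5.55. The causes were not tested.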

How the results depend on the processing

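No alternative brought any of the 30 differences of the 10 genes from control past the threshold (smallest adjusted p 0.528 by limma). Of the 30, 7 kept their sign under all 26 alternatives. Some alternatives could not change a given difference, such as leaving out a mouse of a group outside the comparison. Keeping a sign therefore does not settle it, and the signs of the others are not settled either. The fit on the authors' deposited table was not run. The t-test with a 2-fold limit called 0 probes in each comparison with control, 0 after adjustment alone, and 266, 666 and 183 at an unadjusted p under 0.05. The number of probes called by mouse number was 1099 and became 3179 with median centring, 421 with quantile normalization, 57 with normexp, 442 with no filter, 197 for probes above background on all 20 arrays, and 291 to 4704 with 1 array left out. It was 3185 without control mouse 1 and ptaquiloside mouse 4, 7157 without ptaquiloside mouse 4 and mouse 5 given both, and, without ptaquiloside mouse 4, 8147 with median centring, 4341 with quantile normalization and 357 with normexp. The last 5 settings were added after seeing the data. With 1 array left out, the interaction called 0 to 1 probes. Median centring shifted the median of all probes by -0.23 for ptaquiloside, 0.059 for selenium and -0.046 for both compounds against control, 0.19 and -0.11 for both against ptaquiloside and against selenium, and 0.13 in the interaction.

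With the mouse number as a replicate block on all arrays, the differences of the 10 genes were unchanged, as the design is balanced, and 0 probes were called in each comparison. Mice of 1 number shared a slide in every case. Of 30 pairs of same-numbered mice of different groups, 24 had deviations correlating above 0.1 (median 0.41, range -0.34 to 0.69). Without ptaquiloside mouse 4 it was 24 of 27 pairs (median 0.40), so the likeness within a number varied between pairs. With the block and without ptaquiloside mouse 4, the ptaquiloside difference turned to 0.088 for Mtf1, 0.034 for Slc30a1, 0.0044 for Slc30a5, 0.064 for Slc30a7, 0.15 for Slc39a6 and -0.35 for Slc39a10.

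Other sign changes were these. For ptaquiloside, median centring gave -0.12 for Slc39a3, -0.22 for Slc39a7 and -0.21 for Slc39a10, quantile normalization gave -0.28 for Slc39a10, and normexp gave 0.044 for Slc30a7, -0.0014 for Slc39a3, 0.047 for Slc39a6, -0.16 for Slc39a7 and -0.032 for Slc39a10. For selenium, Mtf1 was 0.052 with median centring and 0.011 with normexp, Slc39a1 was 0.033 with median centring, and Slc39a6 was -0.0062 with quantile normalization. For both compounds, normexp gave 0.012 for Mtf1 and 0.013 for Slc30a5. Without control mouse 1 and ptaquiloside mouse 4, the arrays that the authors' table header says were replaced, ptaquiloside gave 0.21 for Mtf1, 0.049 for Slc30a1, 0.068 for Slc30a5, 0.022 for Slc39a1, -0.18 for Slc39a3, 0.15 for Slc39a6, -0.20 for Slc39a10 and -0.14 for Slc39a14. Selenium gave 0.088 for Mtf1, -0.025 for Slc30a7 and -0.028 for Slc39a6, and both compounds gave 0.027 for Mtf1 and 0.060 for Slc39a10. The causes were not tested.

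With each array left out in turn, the ptaquiloside difference ran from -0.89 to 0.12 for Mtf1, -0.91 to 0.074 for Slc30a1, -1.04 to 0.070 for Slc30a5, -0.32 to 0.021 for Slc30a7, -0.59 to 0.045 for Slc39a1, -0.091 to 0.28 for Slc39a3, -0.52 to 0.20 for Slc39a6, -0.036 to 0.053 for Slc39a7, -0.34 to 0.22 for Slc39a10 and -0.048 to 0.95 for Slc39a14. The selenium difference ran from -0.069 to 0.088 for Mtf1, -0.13 to 0.14 for Slc30a7, -0.093 to 0.14 for Slc39a1 and -0.061 to 0.10 for Slc39a6. That of both compounds ran from -0.14 to 0.043 for Mtf1, -0.091 to 0.027 for Slc30a5, -0.25 to 0.039 for Slc30a7, -0.28 to 0.037 for Slc39a1, -0.22 to 0.029 for Slc39a3, -0.046 to 0.12 for Slc39a6, -0.012 to 0.24 for Slc39a7, -0.33 to 0.13 for Slc39a10 and -0.14 to 0.14 for Slc39a14. Slc39a10 is limited by its signal, above background on 11 of 20 arrays.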
